A study of Homo sapiens with 12 samples.

Results

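The 10 genes described here encode aldehyde dehydrogenases, enzymes that oxidise aldehydes to carboxylic acids with NAD or NADP as the electron acceptor. They are ALDH1A1, ALDH1A3, ALDH1B1, ALDH2, ALDH3A2, ALDH4A1, ALDH5A1, ALDH6A1, ALDH7A1 and ALDH9A1. They were chosen by name as enzymes that clear aldehydes, and no threshold on any value is stated for that choice. Whether they were also selected on measured values, such as signal or change after siRNA, is not known. The choice was made with results of these arrays known, so counts and p-values over the 10 genes describe them and are not independent evidence. All 10 genes had a probe set, the group of short probes that reads a transcript on the array, and together they had 21. They are 10 of the 11963 genes and 21 of the 19064 probe sets that could be assigned to a single gene. A further 7 genes of the family were measured, and ALDH1L2 and ALDH16A1 are not analysed here.

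RNA came from RCC4, a human cell line from a clear cell kidney carcinoma in which the VHL tumour suppressor is lost. The cells were treated with a non-targeting siRNA (siNT) or with an siRNA against WWTR1 (siTAZ), the gene of the transcriptional coactivator TAZ, for 2 days. They then received either erastin, at 1 µM, or its vehicle DMSO, and RNA was taken 7 hours later. Erastin blocks cystine uptake and can start ferroptosis, a death by iron-dependent lipid peroxidation. The groups were siNT with DMSO, siNT with erastin, siTAZ with DMSO and siTAZ with erastin, with 3 arrays in each, which the series describes as biological triplicates of this single cell line. Every culture thus carried an siRNA and every vehicle culture received DMSO.

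Peroxidised membrane lipids break down into reactive aldehydes such as 4-hydroxynonenal and malondialdehyde. Aldehyde dehydrogenases of the cytosol, mitochondria and endoplasmic reticulum oxidise such aldehydes, and other enzymes reduce them or couple them to glutathione. Many family members also have a fixed metabolic step of their own, in the making of retinoic acid or in the breakdown of proline, GABA, valine, lysine and fatty aldehydes. The kidney tubule, from which clear cell carcinoma is thought to arise, is a tissue rich in these oxidative enzymes.

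Of the 5 genes that rose after silencing of WWTR1 in DMSO, 4 had a promoter entry in RefSeq (build GRCh38.p14). Their sequences are shown because each of these genes was called upward there. Each is the 250 bases before the start of the gene, written in the direction of the gene, and capitals mark matches to the CCAAT box (letters CCAAT) on either strand.
ALDH5A1, chr6:24494719-24494968, plus strand: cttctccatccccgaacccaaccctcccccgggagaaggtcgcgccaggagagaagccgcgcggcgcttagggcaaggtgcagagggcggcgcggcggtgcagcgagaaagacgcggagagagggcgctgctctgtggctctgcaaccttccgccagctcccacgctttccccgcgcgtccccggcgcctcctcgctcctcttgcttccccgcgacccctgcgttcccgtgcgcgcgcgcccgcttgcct
ALDH1A1, chr9:72953054-72953303, minus strand: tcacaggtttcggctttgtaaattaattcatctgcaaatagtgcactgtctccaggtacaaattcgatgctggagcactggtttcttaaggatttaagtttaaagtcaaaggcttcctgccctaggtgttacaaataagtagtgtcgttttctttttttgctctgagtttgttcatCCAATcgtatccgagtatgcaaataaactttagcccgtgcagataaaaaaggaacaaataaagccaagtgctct
ALDH6A1, chr14:74084454-74084703, minus strand: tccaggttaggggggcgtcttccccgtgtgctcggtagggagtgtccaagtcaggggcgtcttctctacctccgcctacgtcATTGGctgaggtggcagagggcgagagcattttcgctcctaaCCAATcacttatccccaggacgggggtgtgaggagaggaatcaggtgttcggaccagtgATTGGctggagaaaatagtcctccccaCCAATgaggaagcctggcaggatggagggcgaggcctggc
ALDH7A1, chr5:126595220-126595469, minus strand: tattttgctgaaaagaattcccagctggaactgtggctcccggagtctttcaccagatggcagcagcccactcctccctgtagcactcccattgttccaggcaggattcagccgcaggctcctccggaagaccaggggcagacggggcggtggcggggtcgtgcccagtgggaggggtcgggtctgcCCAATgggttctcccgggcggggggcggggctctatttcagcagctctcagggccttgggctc
In all, 9 of the 10 genes had an entry, with 11 such windows between them. The CCAAT letters were in 6 of the 11 windows and in 32% of the 35116 windows of all genes. ALDH6A1 had 2 matches on each strand, and ALDH1A1 and ALDH7A1 had 1 each, starting 74 and 63 bases before the gene. The window of ALDH1A1 was AT-rich, with 38.4% G and C against 72.0% for ALDH5A1 and a median of 58.0% over all windows. The letters GGAATG, a core that TEAD factors, the DNA-binding partners of TAZ, are known to bind, were searched on both strands. They were in 1 of the 11 windows, at ALDH4A1, and in 11.9% of all windows. The antioxidant response element core TGACNNNGC, the AP-1 letters TGANTCA and the C/EBP-ATF composite TGATGNAA were in 0 of the 11 windows, against 10.9%, 6.57% and 3.14% of all windows. The motifs searched do not share matched bases in these 4 sequences, where only the CCAAT letters occurred. These are matches of letters in a short window, and binding was not measured.

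The deposited values are log2 signals, on which a difference of 1 is a 2-fold change. Array medians lay between 6.48 and 6.54. WWTR1 read 12.19 to 12.35 on the 6 siNT arrays and 9.09 to 9.46 on the 6 siTAZ arrays, which left 12.2% of its signal (exact two-sided permutation p = 0.00216, the smallest that 6 against 6 can give). Of the 9 measured markers of the line, PAX8 averaged 10.61 and VIM 13.53, while LHX1 was dim at 5.74. After siTAZ, 1 of the 9 rose and 2 fell in DMSO, and 2 rose and 3 fell under erastin. EPAS1, the gene of HIF-2α, had group means of 10.71 with siNT and 9.33 with siTAZ in DMSO, a difference of −1.38 ± 0.08, and −1.38 ± 0.08 under erastin. The keratin gene KRT18 had means of 10.49 and 9.43 in DMSO, a difference of −1.06 ± 0.06, and −1.01 ± 0.06 under erastin. PAX2 rose by 0.40 ± 0.07 in both media. Under erastin KRT8 also fell (−0.29 ± 0.08) and CD70 rose (0.25 ± 0.08). The part of these marker changes in the results below was not tested. Marker lists for blood, vessel and fibroblast cells (leukocyte, endothelial, erythroid, fibroblast) had medians of 4.05 to 5.70, and 0 of their 21 measured genes were called in any comparison. On the actin control probe sets, which report on RNA integrity, the 3′ signal less the 5′ signal was 2.26 ± 0.69 on siNT erastin arrays and 3.25 ± 0.33 on siTAZ erastin arrays (SD, n = 3), with the lowest value, 1.49, on siNT erastin replicate 3. In DMSO it was 2.68 ± 0.28 and 2.65 ± 0.04 (SD, n = 3). On the GAPDH control probe sets the same difference was 0.15 ± 0.08 on siNT and 0.20 ± 0.06 on siTAZ erastin arrays. With DMSO the GAPDH values were 0.18 ± 0.07 and 0.20 ± 0.07 (SD, n = 3), so the groups lay close together on this control. Its lowest value, 0.07, was also on siNT erastin replicate 3. Only the actin difference was used as a covariate.

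**Figure D1:**
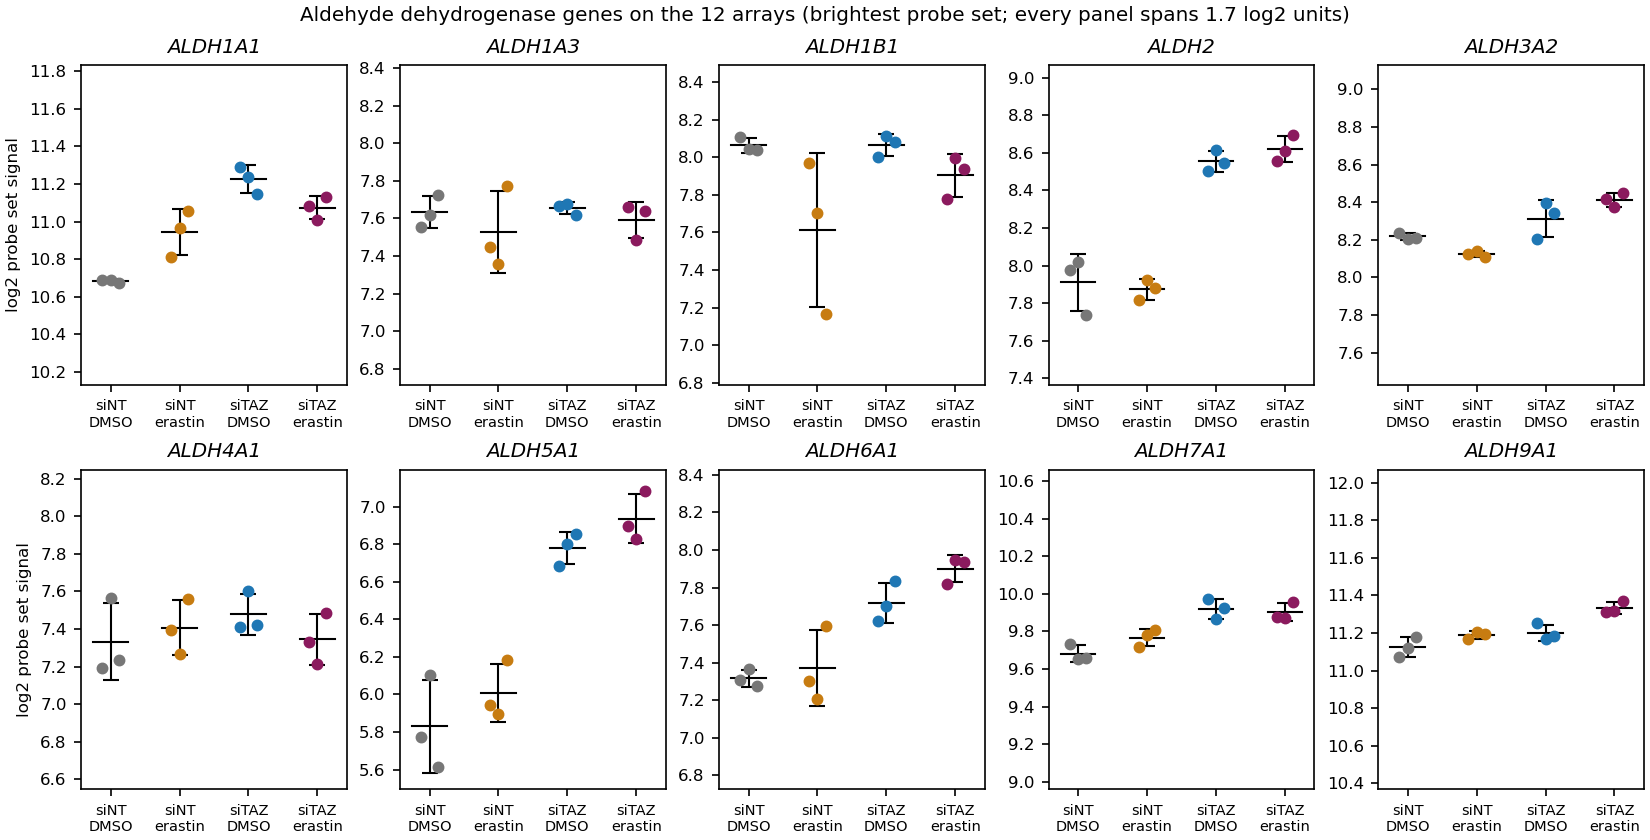
Log2 probe set signal of each aldehyde dehydrogenase gene (brightest probe set) on the 12 arrays. Points are arrays, horizontal lines are group means and bars are 1 SD (n = 3); every panel spans the same height, and ALDH5A1 and ALDH2 show the widest separation of siTAZ from siNT arrays.

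The first comparison asks how silencing of WWTR1 changed these genes in DMSO. Of the 10, 5 rose and 0 fell at a Benjamini-Hochberg adjusted p under 0.05 in limma, adjusted over all 11963 genes. Over all genes 28.6% were called, 14.7% upward and 13.9% downward. The members that rose were ALDH5A1, ALDH2, ALDH1A1, ALDH6A1 and ALDH7A1, and the smallest adjusted p was that of ALDH2. For the same 5 genes, every siTAZ array lay above every siNT array, a pattern that 21.4% of all genes showed in that direction, 22.4% in the other and 43.8% in either. The median difference of the 10 was 0.19, against −0.01 over all genes tested. In such bulk RNA, fewer cells of a kind and less RNA per cell cannot be told apart. Differences below are siTAZ minus siNT on the log2 scale, ± the standard error of the fit with n = 3 arrays per group.

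Among the genes that make retinoic acid, ALDH1A1 rose and ALDH1A3 did not pass the test. Both encode cytosolic retinaldehyde dehydrogenases, and ALDH1A1 is also widely used as a marker of stem-like cells. ALDH1A1 read 10.69, 10.69 and 10.67 on the siNT arrays and 11.29, 11.24 and 11.15 on the siTAZ arrays in DMSO. The siTAZ arrays were all higher, with a difference of 0.54 ± 0.07 or 1.46-fold (limma adjusted p = 6.6e-05). ALDH1A3 differed by 0.02 ± 0.09, with a 95% interval of −0.19 to 0.23, and its groups overlapped.

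The mitochondrial acetaldehyde dehydrogenases also parted. ALDH2, the main enzyme of acetaldehyde clearance and one that oxidises 4-hydroxynonenal, read 7.98, 8.02 and 7.74 on the siNT arrays and 8.51, 8.62 and 8.55 on the siTAZ arrays in DMSO. The groups did not overlap, and the rise was 0.64 ± 0.07 or 1.56-fold (limma adjusted p = 4.03e-05). ALDH1B1, its close mitochondrial relative, gave 0.00 ± 0.15, with a 95% interval of −0.33 to 0.33. Its brighter probe set is of a type that the manufacturer marks as open to cross-hybridisation, and the other gave −0.05 ± 0.06. ALDH3A2, the fatty aldehyde dehydrogenase of the endoplasmic reticulum, differed by 0.09 ± 0.06 on its brightest probe set and did not pass the test. Its second probe set rose by 0.29 ± 0.06 (limma adjusted p = 0.004 over all probe sets) and the dimmest gave −0.03 ± 0.09, so the probe sets of ALDH3A2 disagree in DMSO.

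Of the 4 mitochondrial dehydrogenases that act in amino acid breakdown, 3 rose. ALDH5A1, the succinic semialdehyde dehydrogenase that completes the breakdown of GABA, showed the largest difference of the 10 genes on their brightest probe sets. With the mean of a gene's probe sets it was 0.48, below 0.64 for ALDH2 and 0.54 for ALDH1A1. It read 5.77, 6.10 and 5.61 on the siNT arrays and 6.68, 6.80 and 6.85 on the siTAZ arrays in DMSO. No siNT array reached a siTAZ array, and the rise was 0.95 ± 0.12 or 1.93-fold (limma adjusted p = 7.34e-05). The other ALDH5A1 probe set, at a mean signal of 4.28, in the range of the other cell types' markers, gave 0.00 ± 0.10. With siNT in DMSO the brightest probe set was itself dim, at a mean of 5.83. That lay below the mean signals of the markers HBB (6.43) and COL1A1 (7.43) and above the other markers of those cell types.

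ALDH6A1, the methylmalonate semialdehyde dehydrogenase of valine and thymine breakdown, read 7.31, 7.37 and 7.28 on the siNT arrays and 7.62, 7.70 and 7.83 on the siTAZ arrays in DMSO. The groups were separate, with a rise of 0.40 ± 0.09 or 1.32-fold (limma adjusted p = 0.00552). Its 4 dimmer probe sets gave −0.02 to 0.28, none called, and the mean of all 5 gave 0.23. ALDH7A1, also called antiquitin, which oxidises an intermediate of lysine breakdown and betaine aldehyde, rose by 0.24 ± 0.05 or 1.18-fold (limma adjusted p = 0.00429), from 9.73, 9.65 and 9.66 to 9.97, 9.87 and 9.93. Its other probe sets gave 0.22 ± 0.11 and 0.19 ± 0.08 and did not pass the test. ALDH4A1, which turns pyrroline-5-carboxylate into glutamate in proline breakdown, gave 0.15 ± 0.11, with overlapping groups. ALDH9A1, which oxidises aminoaldehydes in the making of carnitine and GABA, gave 0.08 ± 0.05.

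**Figure D2:**
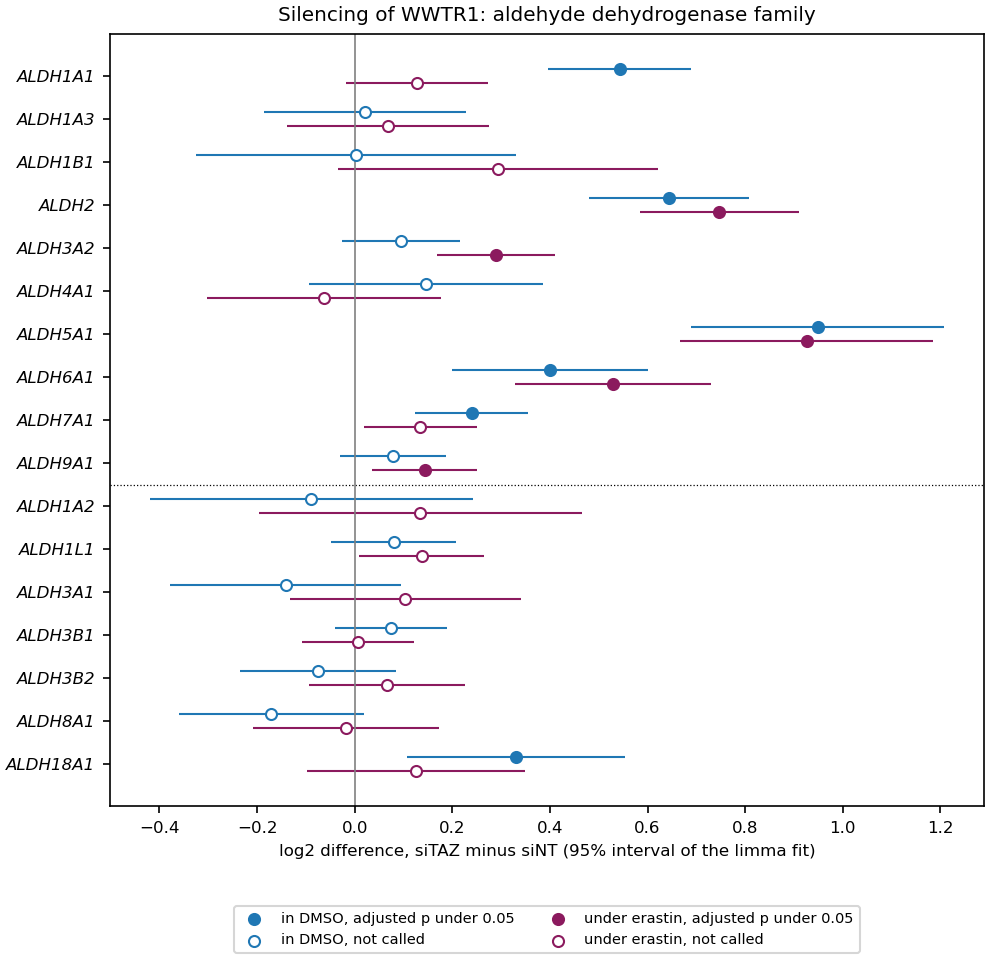
Log2 difference, siTAZ minus siNT, of the 10 aldehyde dehydrogenase genes (above the dotted line) and the other 7 measured genes of the family (below it), in DMSO and under erastin. Bars are 95% intervals of the limma fit (n = 3 arrays per group) and filled points have an adjusted p under 0.05 over all genes; ALDH2, ALDH5A1 and ALDH6A1 are filled in both media.

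The same comparison was then made among erastin-treated cells. Again 5 of the 10 genes rose and 0 fell, where 28.2% of all genes were called, 15.6% upward and 12.6% downward. These were ALDH2, ALDH5A1, ALDH6A1, ALDH3A2 and ALDH9A1, so 3 of the 5 were also called in DMSO. In 6 of the 10, the 5 and ALDH7A1, every siTAZ array lay above every siNT array, as in 21.1% of all genes, with 38.8% separate in either direction. The median difference of the 10 was 0.22, against 0.01 over all genes.

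ALDH2 read 7.82, 7.93 and 7.88 on the siNT arrays and 8.56, 8.61 and 8.70 on the siTAZ arrays under erastin. With a rise of 0.75 ± 0.07 or 1.68-fold it had the lowest adjusted p of the 10 genes (limma adjusted p = 1.32e-05). ALDH5A1 read 5.94, 5.90 and 6.19 against 6.90, 6.83 and 7.08. That was a rise of 0.93 ± 0.12 or 1.90-fold, while its dim second probe set gave 0.16 ± 0.10 and did not pass the test. The mean of both was 0.54. ALDH6A1 read 7.30, 7.21 and 7.60 against 7.82, 7.95 and 7.93, a rise of 0.53 ± 0.09 or 1.44-fold. Its other 4 probe sets gave −0.06 to 0.14, and the mean of all 5, at 0.13, was not called (limma adjusted p = 0.258).

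ALDH3A2 rose on both brighter probe sets under erastin. It read 8.12, 8.14 and 8.11 on the siNT arrays and 8.42, 8.37 and 8.45 on the siTAZ arrays, a difference of 0.29 ± 0.06 or 1.22-fold (limma adjusted p = 0.00173). The second probe set also gave 0.29 ± 0.06, and the dimmest 0.07 ± 0.09. ALDH9A1 rose by 0.14 ± 0.05 or 1.10-fold, from 11.17, 11.21 and 11.19 to 11.31, 11.32 and 11.37, with an adjusted p of 0.0478 in limma. That call was lost in 11 of the 12 fits that leave out 1 array, all but that without siNT DMSO replicate 3, and the difference was 0.13 to 0.15 over the 12.

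The genes without a call under erastin included ALDH1A1, which read 10.81, 10.97 and 11.06 on the siNT arrays and 11.08, 11.01 and 11.13 on the siTAZ arrays. The groups overlapped and the difference was 0.13 ± 0.07 (95% interval −0.02 to 0.27). It was called with the actin 3′ less 5′ difference as a covariate, at 0.28 (limma adjusted p = 0.0243). With array weights it was also called, at 0.21 (limma adjusted p = 0.0161). ALDH7A1 gave 0.13 ± 0.05 (limma adjusted p = 0.081). It was called in limma with quantile normalisation (adjusted p = 0.0432), without genes under the 25th percentile (0.0476), with trend and robust variances (0.0474) and with array weights (0.0253). Its other probe sets gave −0.04 ± 0.11 and −0.06 ± 0.08, and the mean of all 3 gave 0.0098. ALDH1A3 gave 0.07 ± 0.09 and ALDH4A1 −0.06 ± 0.11.

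ALDH1B1 was the gene with the widest spread between arrays of a group. Its brighter probe set read 7.97, 7.70 and 7.16 on the siNT erastin arrays, lowest on replicate 3. That array had the lowest actin 3′ less 5′ difference. On the siTAZ erastin arrays the brighter probe set averaged 7.91 ± 0.11 (SD, n = 3). The difference of 0.29 ± 0.15 did not pass the test. It was 0.07 without siNT erastin replicate 3 and −0.16 with the actin 3′ less 5′ difference as a covariate. Without siNT erastin replicate 1 it was 0.47, with a call (limma adjusted p = 0.0202). The other ALDH1B1 probe set read 7.04, 7.16 and 7.20 against 6.95, 6.89 and 6.90 and fell by 0.22 (limma adjusted p = 0.0227 over all probe sets). The probe sets of ALDH1B1 thus point in opposite directions under erastin.

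**Figure D3:**
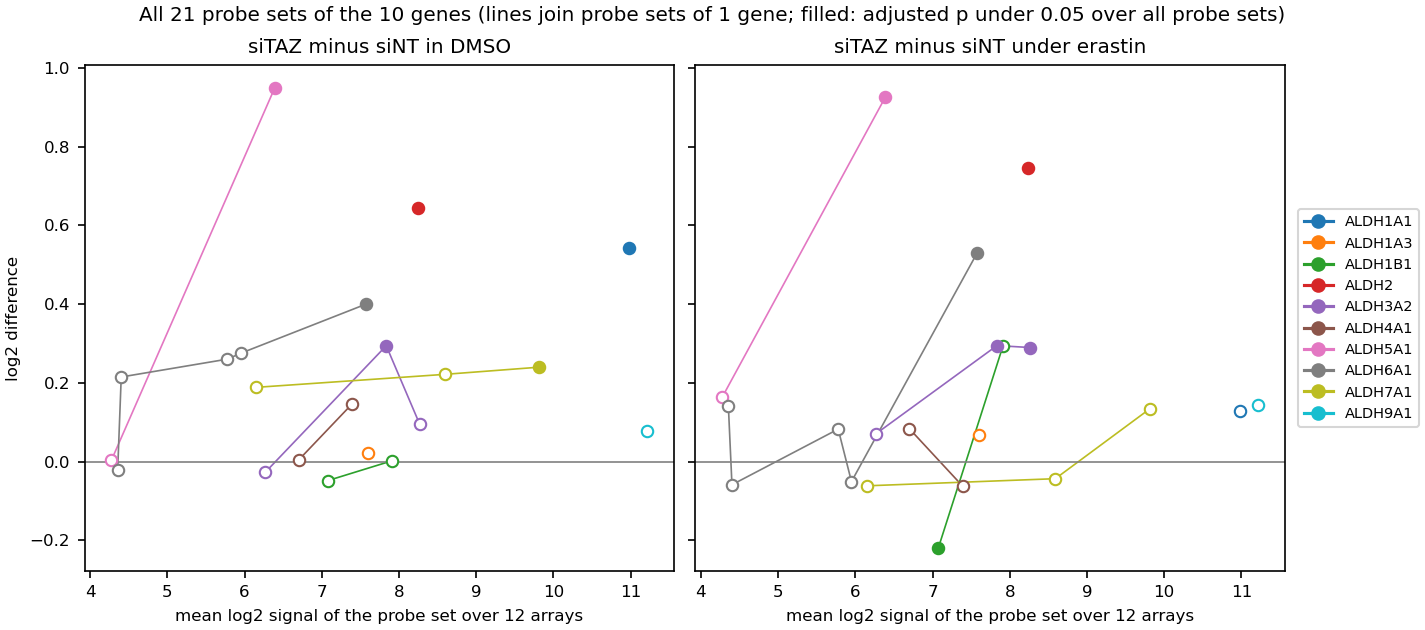
Log2 difference, siTAZ minus siNT, of all 21 probe sets of the 10 genes against their mean log2 signal over 12 arrays, in DMSO (left) and under erastin (right). Lines join probe sets of the same gene and filled points have an adjusted p under 0.05 over all 19064 probe sets; for ALDH5A1, ALDH6A1 and ALDH7A1 the brightest probe set shows the largest difference in both media.

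With each probe set tested on its own, 6 of the 21 rose and 0 fell in DMSO, against 12.6% and 11.7% of all probe sets, or 24.3% in either direction. Under erastin 5 rose and 1 fell, against 13.1% and 11.5%, or 24.6% in either. Probe sets of a gene share its transcripts and are not replicates. ALDH1A1, ALDH1A3, ALDH2 and ALDH9A1 had a single probe set each, so no second reading is at hand for them.

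Of the other 7 measured family members, 1 was called in DMSO and 0 under erastin. ALDH18A1, which makes pyrroline-5-carboxylate from glutamate for proline synthesis and thus runs opposite to ALDH4A1, rose by 0.33 ± 0.10 in DMSO (limma adjusted p = 0.0288). Under erastin it gave 0.13 ± 0.10 and was not called, and the change between media was not called either (interaction −0.21 ± 0.14, limma adjusted p = 0.806). ALDH3B1 gave 0.07 ± 0.05 in DMSO and 0.01 ± 0.05 under erastin. The folate enzyme gene ALDH1L1 gave 0.08 ± 0.06 and 0.14 ± 0.06. ALDH1A2, ALDH3A1, ALDH3B2 and ALDH8A1 had group means of 3.03 to 5.28, in the range of the other cell types' markers, and differences of −0.17 to 0.13. In these 4 dim genes a change could have gone unseen.

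Other enzymes that clear aldehydes moved in both directions. Of 16 measured, 5 rose and 2 fell in DMSO, and 7 rose and 1 fell under erastin. The aldo-keto reductase AKR1C3, which reduces aldehydes and ketones, rose by 1.06 ± 0.06 in DMSO and 0.84 ± 0.06 under erastin. AKR1C1 rose by 0.74 ± 0.07 and 0.45 ± 0.07, but AKR1C genes are close copies of each other, so which of them a probe set reads is uncertain. GSTA4, the glutathione transferase with a preference for 4-hydroxynonenal, rose by 0.63 ± 0.07 and 0.59 ± 0.07. GLO1, the glyoxalase that clears methylglyoxal, rose by 0.63 ± 0.05 and 0.64 ± 0.05. The aldehyde oxidase gene AOX1 fell, with differences of −1.40 ± 0.07 and −1.13 ± 0.07, from a mean of 8.33 to 6.93 in DMSO.

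In the retinoid pathway, to which ALDH1A1 and ALDH1A3 belong, 3 of 18 measured genes rose and 2 fell in DMSO, and 4 rose and 1 fell under erastin. The list median was 0.00 in DMSO and 0.02 under erastin. TGM2, the transglutaminase gene of this list, fell, with differences of −1.18 ± 0.06 and −1.22 ± 0.06. DHRS3, which turns retinaldehyde back into retinol, rose by 0.41 ± 0.11 and 0.50 ± 0.11, and the retinol dehydrogenase gene RDH11 by 0.34 ± 0.07 and 0.26 ± 0.07. The retinoid receptor gene RXRA fell in DMSO (−0.22 ± 0.05), and DHRS9, of the retinol dehydrogenase family, rose under erastin (0.35 ± 0.09).

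The enzymes just before or after the members in their metabolic routes were compared next. In the GABA route 1 of 5 genes rose and 0 fell in each medium, and that gene was ABAT, the GABA transaminase whose product is the substrate of ALDH5A1. ABAT read 5.75, 6.25 and 5.88 on the siNT arrays and 6.81, 6.93 and 6.85 on the siTAZ arrays in DMSO. It rose by 0.90 ± 0.14 in DMSO and 0.94 ± 0.14 under erastin, beside 0.95 ± 0.12 and 0.93 ± 0.12 for ALDH5A1. With siNT in DMSO ABAT was dim, at a mean of 5.96. The other 4 genes of the GABA route had mean signals of 4.58 to 5.67, so a change in them could have gone unseen. In the proline route around ALDH4A1, 0 of 6 genes rose and 2 fell in each medium. These were GLUD1, glutamate dehydrogenase, at −0.36 ± 0.06 and −0.47 ± 0.06, and PYCR1, the last enzyme of proline synthesis, at −0.25 ± 0.06 in both media.

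In the valine and branched-chain route around ALDH6A1, 3 of 21 genes rose and 3 fell in DMSO, and 4 rose and 2 fell under erastin. ACADM, the medium-chain acyl-CoA dehydrogenase, rose by 0.56 ± 0.07 and 0.45 ± 0.07. Of the branched-chain ketoacid dehydrogenase, BCKDHB rose by 0.44 ± 0.08 and 0.29 ± 0.08 and DLD by 0.36 ± 0.07 and 0.20 ± 0.07. MCCC1, a carboxylase subunit of leucine breakdown, rose by 0.23 ± 0.08 under erastin and gave 0.21 ± 0.08 without a call in DMSO, and IVD of the leucine branch fell, at −0.51 ± 0.07 and −0.56 ± 0.07. In the lysine and choline route around ALDH7A1, the glutaryl-CoA dehydrogenase gene GCDH fell, at −0.29 ± 0.06 and −0.36 ± 0.06, while DHTKD1 rose by 0.24 ± 0.06 in DMSO and gave 0.14 ± 0.06 without a call under erastin, out of 4 genes measured. In the carnitine and polyamine route around ALDH9A1, 0 of 11 genes rose and 3 fell in each medium. They were SHMT2 (−0.79 ± 0.06 in DMSO and −0.56 ± 0.06 under erastin), the spermine oxidase gene SMOX (−0.51 ± 0.06 and −0.73 ± 0.06) and the polyamine acetyltransferase gene SAT1 (−0.43 ± 0.05 and −0.34 ± 0.05). Of the 8 genes not called, TMLHE and BBOX1 of carnitine synthesis were dim, at mean signals of 3.85 and 2.70. Most others of the 8 were dim too, so a change in these genes could have gone unseen.

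Among 10 genes of the ethanol and fatty aldehyde routes, 3 rose and 1 fell in DMSO, and 2 rose and 1 fell under erastin. The fall was SGPL1, the sphingosine phosphate lyase that releases the fatty aldehyde oxidised by ALDH3A2. SGPL1 read 9.78, 9.79 and 9.67 on the siNT arrays and 9.07, 9.14 and 9.17 on the siTAZ arrays in DMSO, a difference of −0.62 ± 0.05, and under erastin the difference was −0.52 ± 0.05. PHYH, which starts the breakdown of phytanic acid, rose by 0.60 ± 0.06 and 0.46 ± 0.06, and the catalase gene CAT by 0.32 ± 0.05 and 0.19 ± 0.05. The alcohol dehydrogenase gene ADH1C, which was dim, rose by 0.25 ± 0.06 in DMSO. Over the 9 lists of neighbouring genes together, the other 7 family genes included, 17 of 98 genes rose and 14 fell in DMSO, against the 14.7% and 13.9% of all genes given above. Under erastin 18 of the 98 rose and 11 fell, against 15.6% and 12.6% of all genes.

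**Figure D4:**
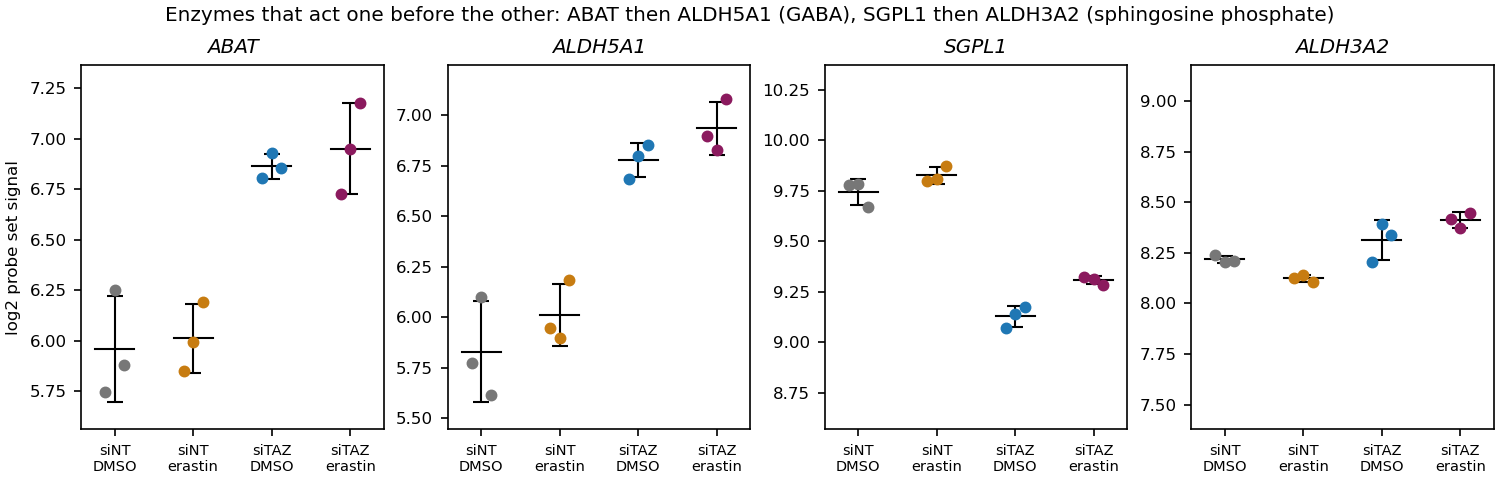
Log2 probe set signal of ABAT and ALDH5A1, which act in sequence on GABA, and of SGPL1 and ALDH3A2, which act in sequence on sphingosine phosphate, on the 12 arrays. Points are arrays, lines are group means and bars are 1 SD (n = 3); ABAT and ALDH5A1 are both higher on all siTAZ arrays, whereas SGPL1 is lower on all of them.

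Genes outside these lists with a course most like the 3 members of widest range were found by the root mean square distance between centred log2 signals over the 12 arrays. Nearest to ALDH5A1 were TNKS (0.10), JHY (0.11) and SULT1C2 (0.11). Nearest to ALDH2 were CREBL2 (0.07), SRPX (0.07) and LAMC1 (0.07). Nearest to ALDH6A1 were BCL6 (0.06), LIN7C (0.07) and PTPRG (0.08).

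The next comparisons ask what erastin does to these genes. In siNT cells 0 of the 10 were called in limma, where 0.802% of all genes were, and 2 had an unadjusted p under 0.05, as had 1245 of all 11963 genes. In siTAZ cells 0 were called, where 0.56% of all genes were, and again 2 had an unadjusted p under 0.05, as had 1220 of all genes. The median difference of the 10, erastin minus DMSO, was 0.06 in siNT and 0.02 in siTAZ cells, against 0.00 and 0.01 over all genes. These contrasts share their DMSO and erastin arrays with the siTAZ contrasts above. Among the 98 neighbouring genes, 1 was called in siNT cells, AKR1C1 at 0.38 ± 0.07, and 1 in siTAZ cells, SHMT2 at 0.40 ± 0.06.

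ALDH1A1 and ALDH1B1 were the 2 with a low unadjusted p in siNT cells. ALDH1A1 was higher on every siNT erastin array than on every siNT DMSO array, by 0.26 ± 0.07 or 1.20-fold (limma adjusted p = 0.127, unadjusted p = 0.00207 in the same fit). With trend and robust variances in limma it was called (adjusted p = 0.0149). ALDH1B1 was lower on every siNT erastin array, by −0.45 ± 0.15 (limma adjusted p = 0.285), and by −0.23 without siNT erastin replicate 3. Its other probe set gave −0.02 ± 0.06.

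In siTAZ cells ALDH1A1 lay on the other side. It was lower on every siTAZ erastin array than on every siTAZ DMSO array, by −0.15 ± 0.07 (limma adjusted p = 0.471). ALDH9A1 was higher on every siTAZ erastin array, by 0.13 ± 0.05 (limma adjusted p = 0.402). ALDH1B1 was lower on every siTAZ erastin array, by −0.16 ± 0.15 (limma adjusted p = 0.739). Its other probe set was lower there too, by −0.19 ± 0.06 (limma adjusted p = 0.408 over all probe sets), again without overlap. In siNT cells the groups of 3 of the 10 genes did not overlap, 1 upward and 2 downward, and neither did those of 14.4% of all genes, 5.92% upward and 8.52% downward. In siTAZ cells it was again 3 of the 10, 1 upward and 2 downward, and 20.7% of all genes, 10.9% upward and 9.81% downward. ALDH2 gave −0.04 ± 0.07 in siNT and 0.07 ± 0.07 in siTAZ cells, and its 95% intervals exclude changes below −0.20 or above 0.23. ALDH5A1 gave 0.18 ± 0.12 and 0.16 ± 0.12, and ALDH6A1 0.05 ± 0.09 and 0.18 ± 0.09, none of which passed the test.

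**Figure D5:**
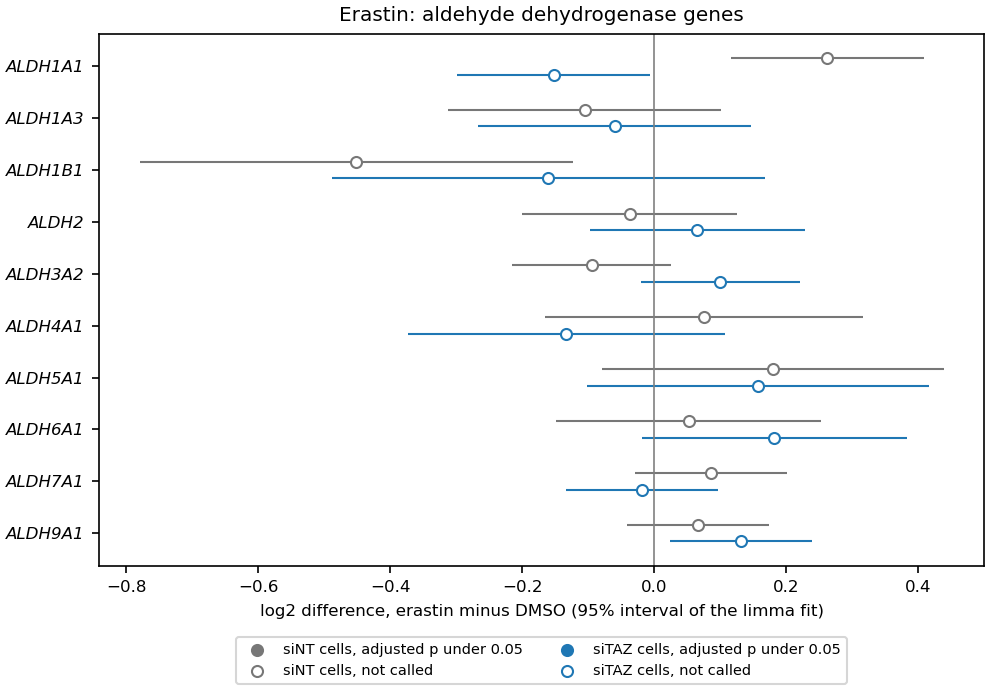
Log2 difference, erastin minus DMSO, of the 10 aldehyde dehydrogenase genes in siNT and siTAZ cells. Bars are 95% intervals of the limma fit (n = 3 arrays per group); no point has an adjusted p under 0.05, and ALDH1A1 lies above 0 in siNT and below 0 in siTAZ cells.

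Whether silencing and erastin act independently was tested as an interaction, the erastin difference in siTAZ cells minus that in siNT cells. In limma 0 of the 10 genes were called, as were 0 of all 11963 genes, or 0% of them. At an unadjusted p under 0.05 there were 2 of the 10 and 764 of all genes. The 2 were ALDH1A1, at −0.41 ± 0.09 (limma adjusted p = 0.614), and ALDH3A2, at 0.19 ± 0.08 (limma adjusted p = 0.77). The second ALDH3A2 probe set gave an interaction of 0.00 ± 0.09, and the mean of all 3 gave 0.10. ALDH1A1 ranked 16 by p among all genes. With trend and robust variances in limma, 10 genes were called and ALDH1A1 was among them (adjusted p = 0.0454). With the actin 3′ less 5′ difference as a covariate the ALDH1A1 interaction was −0.26 and was not called (limma adjusted p = 0.651). For ALDH2 the interaction was 0.10 ± 0.11, for ALDH5A1 −0.02 ± 0.17 and for ALDH6A1 0.13 ± 0.13. The 95% interval for ALDH5A1, −0.39 to 0.34, leaves room for differences of that size between media.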

How the data were processed

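Total RNA of 12 RCC4 cultures was measured on Affymetrix arrays with 22277 probe sets. The authors deposited log2 signals; the submitters' processing notes name RMA and Affymetrix Expression Console, with version numbers not given in the sources used here. RMA normalises between arrays, so a shift shared by all transcripts would not show. Sample titles gave the groups and replicate numbers, and 0 columns stayed unmapped. Probe sets left out were 62 controls, 1043 assigned to more than 1 gene and 2108 assigned to none. The remaining 19064 covered 11963 genes by GEO's platform annotation, and the probe set with the highest mean stood for its gene.

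All 12 arrays entered a single fit with a mean per group in limma 3.58.1 under R 4.3.3, whose variance moderation added 3.90 prior to 8 residual degrees of freedom. A call means an adjusted p under 0.05, with the Benjamini-Hochberg adjustment made across every gene. With 3 arrays against 3, an exact permutation test cannot go below 0.1. The fit was tested on simulated data with independent noise in every gene and array, and its pass condition covered 2-fold changes only. Effects shared by the genes of an array, such as RNA integrity, were not simulated. The number of arrays limits the precision, and if the triplicates were not separate cultures the p-values measure technical spread only. The labels do not state whether replicate numbers pair the arrays. Correlations of same-numbered deviations ran from −0.42 to 0.36. Differently numbered arrays were not compared, so these values do not settle pairing. The named genes were all members with every probe set, WWTR1, the rest of the family, up to 4 genes per list and comparison with the largest called changes, and the 3 nearest profiles for 3 members. Besides these, MCCC2, TMLHE and BBOX1 were named to show limits of their lists. The members and lists were chosen with earlier results of these data known. Alternatives covered scaling, filtering, probe set choice, variance model, array weights, pairing, an actin covariate (the 3′ less 5′ difference) and leaving out each array.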

Additional observations from a re-analysis of the deposited data

Results flagged for a closer look

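ALDH1A1 stood out because its erastin and DMSO arrays separated in opposite directions in the 2 siRNA backgrounds, although neither difference was called (limma adjusted p = 0.127 in siNT and 0.471 in siTAZ cells): all 3 siNT erastin arrays lay above the siNT DMSO arrays (10.81 to 11.06 against 10.67 to 10.69), and all 3 siTAZ erastin arrays lay below the siTAZ DMSO arrays (11.01 to 11.13 against 11.15 to 11.29). Of all genes, 5.92% separated upward in siNT cells and 9.81% downward in siTAZ cells. How many genes outside the 10 did both was not counted. The test of the difference itself, the interaction, gave −0.41 for ALDH1A1 and did not pass over all genes (limma adjusted p = 0.614). Leaving out 1 array at a time gave −0.48 to −0.36, and the actin covariate gave −0.26. With trend and robust variances in limma the interaction was called (adjusted p = 0.0454).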

How the results depend on the processing

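Of the 10 calls of members after siTAZ, 8 held in all 22 other settings; ALDH9A1 under erastin lost its call in 5 settings and 11 leave-one-array-out fits, and ALDH6A1 under erastin with the mean of probe sets (0.13). The interaction, 0 genes called, gave 3 with arrays centred, 3 with quantile normalisation, 3 without genes under the 25th percentile, 10 with trend and robust variances and 3 with array weights. Erastin in siNT cells, 96 genes, gave 59 with each probe set tested, 186 with trend and robust variances, 324 with array weights, 15 with only the compared groups and 39 with the replicate block. Erastin in siTAZ cells, 67 genes, gave 164, 166 and 34 with trend and robust variances, array weights and the replicate block. Trend and robust variances called 1 member, ALDH1A1, in the siNT erastin comparison and in the interaction. Whether same-numbered arrays were paired is not known, and the replicate block changed no member's call except ALDH9A1. Leaving out 1 array gave 2809 to 3704 genes for siTAZ in DMSO (members 5 to 5), 2775 to 3398 under erastin (members 4 to 5), 30 to 79 for erastin in siNT, 30 to 81 in siTAZ and 0 to 1 for the interaction. Signs turned in 17 values under other settings and 19 when 1 array was left out, none of them called (smallest adjusted p among these 0.404). For siTAZ in DMSO ALDH1B1 gave −0.0059 with arrays centred, −0.0060 with quantile normalisation, −0.023 with the mean of probe sets and −0.0092 with array weights. With the mean of probe sets ALDH4A1 gave 0.011 under erastin and 0.021 for erastin in siTAZ cells, and the interaction was 0.068 for ALDH5A1 and −0.10 for ALDH6A1. With array weights the ALDH5A1 interaction was 0.0083 and ALDH6A1 in siNT cells −0.0040. With the actin covariate ALDH1B1 gave −0.16 and ALDH4A1 0.10 for siTAZ under erastin, ALDH6A1 −0.014 for erastin in siNT, ALDH1A3 0.069 and ALDH7A1 0.021 for erastin in siTAZ, and the interaction was 0.20 for ALDH5A1 and −0.17 for ALDH1B1. Leaving out 1 array, siTAZ in DMSO ran from −0.017 to 0.068 for ALDH1A3 and −0.023 to 0.034 for ALDH1B1; siTAZ under erastin from −0.017 to 0.19 for ALDH1A3 and −0.13 to 0.014 for ALDH4A1; erastin in siNT from −0.12 to 0.016 for ALDH2, −0.00080 to 0.19 for ALDH4A1 and −0.061 to 0.13 for ALDH6A1; erastin in siTAZ from −0.047 to 0.0060 for ALDH7A1; and the interaction from −0.16 to 0.085 for ALDH5A1 and −0.038 to 0.17 for ALDH1A3. The cause of these changes was not tested. Dim probe sets, near the signals of other cell types' markers, limit what could be seen.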
